A study of Mus musculus with 24 samples.

Results

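The genes described here are 10 markers of the heart and of the lateral mesoderm from which it forms: the transcription factor genes Hand1, Hand2, Nkx2-5, Tbx5, Isl1 and Mef2c, and the contractile genes Tnnt2, Myl7, Myh6 and Actc1. They were chosen by name, as the entries of the expression table labelled with these symbols, and all 10 were found among 25965 entries. RNA-seq had been performed on male C57/Bl6 mouse embryonic stem cells, which were expanded in 2i medium and then differentiated by a stepwise move into medium with serum. A retrovirus carrying a short hairpin was added on day 2, puromycin selection began on day 3, and cells were harvested on days 4, 5, 6 and 7. The study examined the part of the BAF chromatin remodelling complex in X chromosome inactivation, which male cells do not undergo.

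The control group, Nons, received a nonsilencing hairpin. The labels name 2 Nons libraries a day, and 1 a day was used, 4 in all, while the second of each day, 4 samples, was not analysed here. Each comparison with Nons on a day therefore rests on a single control library. Knockdown of Smarcc1, a core subunit of BAF, was done with hairpins Smarcc1.6 and Smarcc1.7, each with 1 library a day, 8 in all. Knockdown of Smarca4, the ATPase subunit, was done in the same way with Smarca4.4 and Smarca4.6, 8 libraries. All 20 libraries share the male line, the viral transduction and the drug selection. Levels are in rpm, read numbers made comparable by dividing them by library size. Totals ran from 6829596 reads (Smarca4.4, day 5) to 27472885 (Nons, day 4), and 3 reads, the smallest number told from none, equal 0.109 to 0.439 rpm depending on the library. These limits and the intervals given further on cover counting error only.

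Nkx2-5, Isl1, Tbx5, Hand1, Hand2 and Mef2c act together in cardiac progenitors, where they switch on one another and the genes of the contractile apparatus. Several also work in other tissues, Hand1 in trophoblast and extraembryonic mesoderm, Isl1 in motor neurons, and Mef2c in endothelium and neurons. BAF complexes that hold the subunit Smarcd3 are known to work with cardiac transcription factors in the embryo.

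The targeted genes were examined first, because a genotype field and the titles of the Smarca4 libraries name different genes. Smarcc1 was at 451, 259.8, 127 and 172 rpm in Nons on days 4, 5, 6 and 7, at 163, 61.5, 43.6 and 71.5 rpm with Smarcc1.6 and at 192, 109, 76.4 and 80.9 rpm with Smarcc1.7. It was lower than in Nons of the same day in 8 of 8 libraries and fell by 1.33 on the log2 scale (SE 0.21, adjusted p = 0.0011 by limma). Smarca4 was at 222, 151, 90.4 and 160.3 rpm in Nons, at 56.0, 49.5, 50.03 and 42.2 rpm with Smarca4.4 and at 62.9, 36.3, 19.5 and 43.6 rpm with Smarca4.6. It too was lower in 8 of 8 libraries, and it fell by 1.79 (SE 0.29, adjusted p = 0.0028). Over 20 other settings that adjusted p ran from 4.2e-04 to 0.068, and the call ended without Smarca4.6 (0.068) and with day 7 left out (0.056). Each target was thus lower in the libraries whose titles name it, and the titles were followed.

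Most of the heart genes were scarce. Hand1, Myl7 and Myh6, 3 of the 10, had a mean of at least 0 on the log2 rpm scale, the filter that 13296 genes passed. A looser filter, at least 10 reads in at least 2 libraries, was passed by 16324 genes and also let in Nkx2-5, Isl1, Mef2c and Actc1, so that 7 of the 10 passed a filter. Hand2, Tbx5 and Tnnt2 passed neither and entered only the fit with no filter. A scarce gene can pass such a filter through the libraries in which it is high, so counts over the genes that passed support no direction. Per kilobase of annotated exon and pooled over the 20 libraries, the level was highest for Myl7 (3.41 rpm per kilobase), then Hand1 (2.17), Myh6 (0.623), Actc1 (0.581), Nkx2-5 (0.502) and Isl1 (0.198). Hand2 (0.0383), Mef2c (0.0182), Tnnt2 (0.0173) and Tbx5 (0.00385) were far lower. Neighbours in this order overlapped in their ranges over libraries, and the order was not the same in each group or on each day. It also depends on the length used, the union of all annotated exons of a gene. That length was 590 bases for Myl7, 7752 for Tnnt2 and 15715 for Mef2c. In pooled rpm without length, Hand1 (4.33) and Myh6 (4.19) stood before Myl7 (2.01). Mef2c (0.286) and Tnnt2 (0.134) then stood before Hand2 (0.0901). In Nons alone the mean was highest for Myl7 (3.58 rpm per kilobase), then Actc1 (1.41), Hand1 (1.09) and Myh6 (0.347). On day 4 the means over 5 libraries put Myl7 (1.74 ± 0.440, SD) before Myh6 (0.661 ± 0.0641) and Hand1 (0.519 ± 0.188). On day 7 Hand1 (5.84 ± 2.16) stood before Myl7 (3.82 ± 0.934) and Actc1 (1.19 ± 0.494), with the ranges of Hand1 and Myl7 overlapping.

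**Figure D1:**
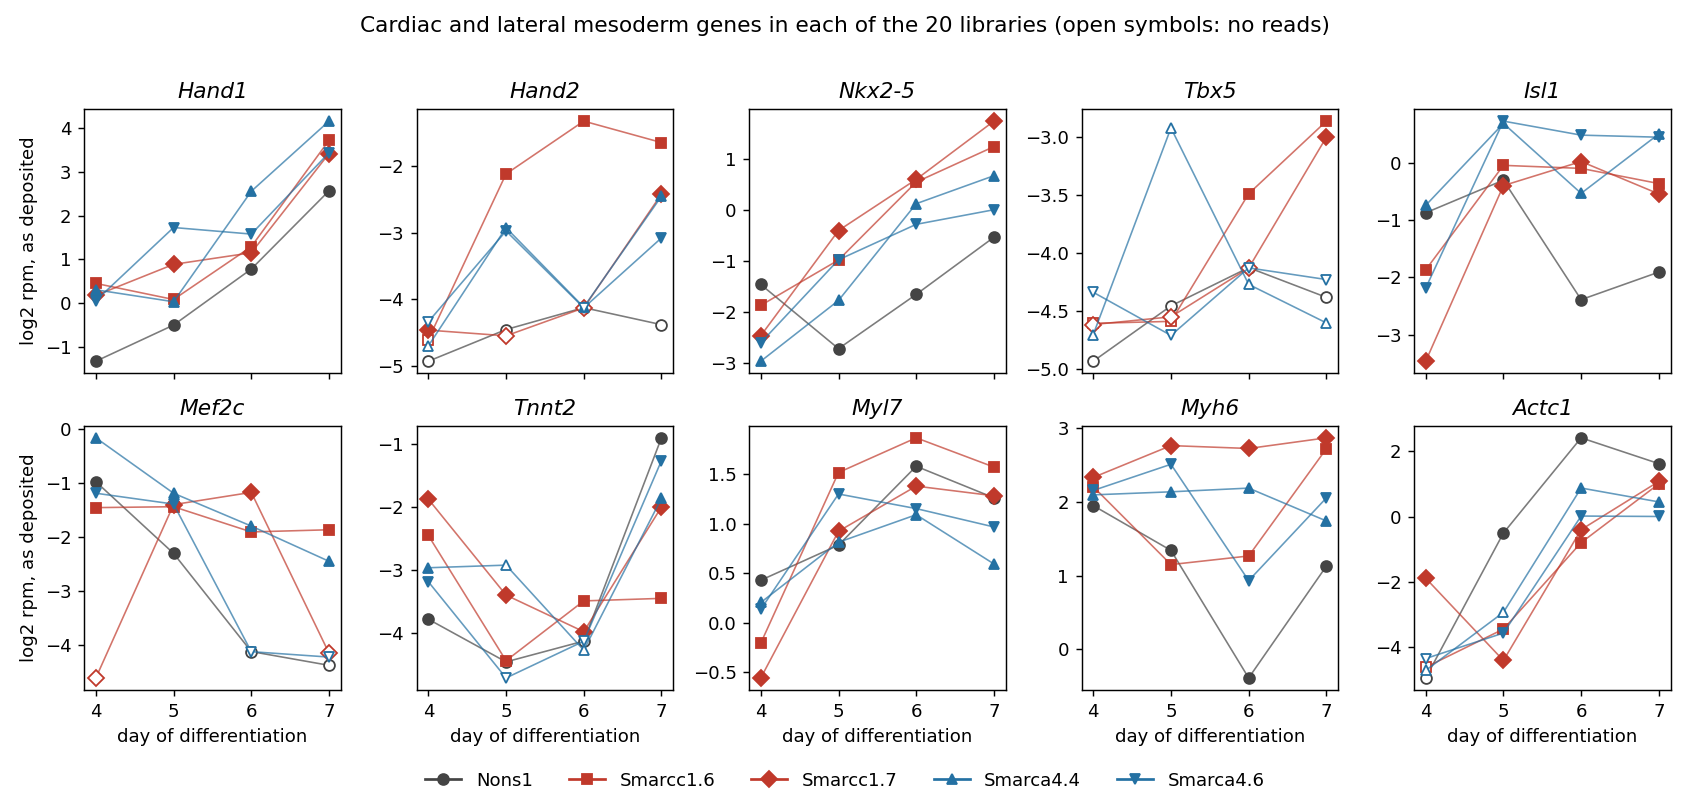
Deposited log2 rpm of the 10 genes (vertical axes) by day of differentiation (horizontal axes) in each of 20 libraries, with lines joining the days of a hairpin and open symbols for libraries without reads. Hand1 is higher on day 7 than on day 6 in every series, Actc1 is highest in Nons on days 5, 6 and 7, and Tbx5 has reads in 3 libraries.

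Hand1, a basic helix-loop-helix factor of the early heart and of extraembryonic tissue (chr11:57828705-57832818, minus strand, mm10), rose as the cells differentiated. In Nons it was at 0.400, 0.709, 1.72 and 5.92 rpm on days 4, 5, 6 and 7, from 11, 14, 27 and 111 reads. With hairpin Smarcc1.6 the values were 1.37, 1.06, 2.45 and 13.1 rpm, and with Smarcc1.7 1.13, 1.85, 2.22 and 10.7 rpm. With Smarca4.4 they were 1.24, 1.02, 5.87 and 17.8 rpm, and with Smarca4.6 1.04, 3.31, 2.99 and 10.8 rpm. Each hairpin library lay above Nons of its day, 8 of 8 in either knockdown, but the 95% exact counting interval of the ratio to Nons reached under 1 for Smarcc1.6 and Smarca4.4 on day 5 and for both Smarcc1 hairpins on day 6. From day 4 to day 7, averaged over the 3 arms, Hand1 rose by 3.58 log2 (SE 0.34, adjusted p = 1.3e-06, higher in 5 of 5 series). The steps from day 5 to day 6 (1.07, SE 0.34, adjusted p = 0.031, 4 of 5 series) and from day 6 to day 7 (1.95, SE 0.34, adjusted p = 0.0022, 5 of 5 series) also passed the test. The first of these passed in 7 of 13 other settings (adjusted p from 0.0067 to 0.15) and ended, with the adjusted p in brackets here and further on, with 1 added to the rpm (0.051), with limma-voom (0.051), without Smarcc1.6 (0.15), without Smarcc1.7 (0.062), without Smarca4.4 (0.12) and without the Smarca4.4 library of day 5 (0.0504). The change from day 4 to day 5 (0.56, SE 0.34, adjusted p = 0.204, adjusted p from 0.03 to 0.74 over other settings) passed only without Smarca4.4 (0.035) and without the Smarca4.4 library of day 5 (0.03). In bulk samples such as these, fewer cells of a type and less RNA per cell cannot be told apart.

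Averaged over days, Hand1 was 1.35 log2 higher in Smarca4 knockdown than in Nons (SE 0.31, adjusted p = 0.022) and 1.02 higher in Smarcc1 knockdown (SE 0.31, adjusted p = 0.058). The latter missed the threshold of 0.05, and lay just under it (0.0499) among the genes of the looser filter. Both comparisons share the 4 Nons libraries, and the difference between the knockdowns was -0.33 (SE 0.26, adjusted p = 0.61). Over 20 other settings the adjusted p for Smarca4 knockdown ran from 0.0038 to 0.17 and passed in 11, and for Smarcc1 knockdown it ran from 0.018 to 0.34 and passed in 7. The Smarca4 call ended with libraries thinned to the smallest (0.082), with the replicate block (0.17), without Smarcc1.6 (0.059), without Smarcc1.7 (0.058), with only the arms compared (0.058), on days 6 and 7 only (0.14), with day 4 left out (0.11), with day 6 left out (0.061) and with day 7 left out (0.15). The Smarcc1 difference passed without Smarca4.4 (0.027), without Smarca4.6 (0.026), without the Smarca4.4 library of day 5 (0.018), with only the arms compared (0.028), with an additive model (0.024), with day 5 left out (0.022) and with the 10-read filter (0.0499).

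Nkx2-5, the homeobox factor of the cardiac crescent (chr17:26838664-26841565, minus strand), was at 0.364, 0.152, 0.318 and 0.693 rpm in Nons, from 10, 3, 5 and 13 reads. With hairpin Smarcc1.6 the values were 0.274, 0.508, 1.47 and 2.38 rpm, and with Smarcc1.7 0.181, 0.759, 1.52 and 3.37 rpm. With Smarca4.4 they were 0.128, 0.293, 1.09 and 1.601 rpm, and with Smarca4.6 0.165, 0.510, 0.826 and 1.01 rpm. These values rest on 6, 11, 33 and 52 reads with Smarcc1.6, 4, 16, 24 and 54 with Smarcc1.7, 3, 2, 19 and 35 with Smarca4.4 and 3, 12, 13 and 17 with Smarca4.6. On day 4 the counting interval of the ratio to Nons took in 1 for all 4 hairpins, and on day 5 it lay above 1 for Smarcc1.7 alone (1.43 to 26.8), while Smarca4.4, with 2 reads against 3 in Nons, was under the limit of 3 reads (ratio interval 0.161 to 16.8). On days 6 and 7 the interval lay above 1 for Smarcc1.6, Smarcc1.7 and Smarca4.4 and took in 1 for Smarca4.6. Among genes past the looser filter it rose by 2.57 from day 4 to day 7 (SE 0.31, adjusted p = 8.5e-06, 5 of 5 series), and by 0.98 to 2.76 over other settings. The step from day 5 to day 6 was 1.21 (SE 0.31, adjusted p = 0.01, 5 of 5 series). That step passed in 8 of 11 other settings (adjusted p from 0.0061 to 0.199) and ended with libraries thinned to the smallest (0.199), without Smarcc1.6 (0.067) and without Smarca4.4 (0.059). The step from day 6 to day 7 was 0.82 (SE 0.31, adjusted p = 0.068, 5 of 5 series) and passed with 1 added to the rpm (0.024), with libraries thinned to the smallest (0.033), with the replicate block (0.047) and without the Smarca4.4 library of day 5 (0.049), with adjusted p from 0.024 to 0.19 over other settings. Nkx2-5 was 1.40 higher in Smarcc1 knockdown (SE 0.28, adjusted p = 0.0055, higher in 6 of 8 libraries), a difference of 0.61 to 2.13 over other settings. This passed in 15 of 18 other settings (adjusted p from 0.0023 to 0.11) and ended without Smarcc1.7 (0.065), with day 6 left out (0.093) and with day 7 left out (0.11). Against the same Nons libraries the Smarca4 difference was 0.62 (SE 0.28, adjusted p = 0.24, 6 of 8 libraries), and the knockdowns differed from each other by 0.78 (SE 0.23, adjusted p = 0.078), which passed only with 1 added to the rpm (0.03), with adjusted p from 0.03 to 0.49 over other settings.

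Isl1, a LIM homeobox factor of second heart field progenitors (chr13:116298281-116309688, minus strand), was at 0.546, 0.810, 0.191 and 0.266 rpm in Nons, from 15, 16, 3 and 5 reads. With hairpin Smarcc1.6 the values were 0.274, 0.970, 0.934 and 0.778 rpm, and with Smarcc1.7 0.0906, 0.759, 1.02 and 0.686 rpm. With Smarca4.4 they were 0.598, 1.61, 0.691 and 1.42 rpm, and with Smarca4.6 0.220, 1.66, 1.40 and 1.36 rpm. On days 6 and 7, when Nons had few reads, all 4 hairpins lay above it, although the counting interval of the ratio took in 1 for Smarca4.4 on day 6 and for Smarcc1.7 on day 7. On days 4 and 5 most of these intervals took in 1. The exceptions were Smarcc1.7 on day 4, below 1 (0.0184 to 0.714), and Smarca4.6 on day 5, above 1 (1.12 to 3.92). Isl1 rose by 1.73 from day 4 to day 5 (SE 0.39, adjusted p = 0.0041, 5 of 5 series). From day 4 to day 7 it rose by 1.04 (SE 0.39, adjusted p = 0.032, 4 of 5 series), a call made in 6 of 11 other settings (adjusted p from 0.022 to 0.14) and ended with median centring (0.11), with quantile normalization (0.088), with libraries thinned to the smallest (0.101), without Smarcc1.7 (0.14) and without Smarca4.6 (0.12). It also ended with no filter (0.056). In Smarca4 knockdown it was 1.29 higher (SE 0.36, adjusted p = 0.048, 7 of 8 libraries), but over other settings the adjusted p ran from 0.0073 to 0.48 and passed in 4 of 18, namely with 1 added to the rpm (0.016), with limma-voom (0.0495), on days 6 and 7 only (0.015) and with day 4 left out (0.0073). With no filter it was 0.082. In Smarcc1 knockdown the difference was 0.52 (SE 0.36, adjusted p = 0.41, 5 of 8 libraries), with -0.041 under quantile normalization and -0.085 with day 6 left out. It passed on days 6 and 7 only (0.024) and with day 4 left out (0.024), and adjusted p ran from 0.024 to 0.96 over other settings.

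The other factors lay near the limit of detection. Mef2c, a MADS-box factor (chr13:83504034-83667079, plus strand), had 14, 4, 0 and 0 reads in Nons, 8, 8, 6 and 6 with Smarcc1.6, 0, 8, 7 and 0 with Smarcc1.7, 21, 3, 5 and 4 with Smarca4.4 and 8, 9, 0 and 0 with Smarca4.6. It had no reads in 6 of 20 libraries. Reads were fewer on day 7 than on day 4 in the 4 series that had any on those days. limma called Mef2c lower on day 7, a call made in 8 of 11 other settings and ended in 3. No fitted change is given, since Smarcc1.7 had no reads on day 4 or day 7. Values of Mef2c on day 7 in Nons, Smarcc1.7 and Smarca4.6 also stood at a lowest value set by depth. With libraries without reads at that lowest value, its differences from Nons were 0.70 in Smarcc1 knockdown (SE 0.67, adjusted p = 0.57) and 0.88 in Smarca4 knockdown (SE 0.67, adjusted p = 0.51). Hand2, a relative of Hand1 needed for the right ventricle (chr8:57320983-57324517, plus strand), had no reads in Nons and 0 to 9 reads in the hairpin libraries, the most with Smarcc1.6 on day 6. Tbx5, a T-box factor of the first heart field and forelimb (chr5:119834663-119885218, plus strand), had 2 and 3 reads with Smarcc1.6 on days 6 and 7, 2 reads with Smarcc1.7 on day 7, and none elsewhere. Hand2 and Tbx5 were too scarce for the filters. In the fit with no filter limma called Hand2 higher on day 7 than on day 4, as it did 23% of genes, but no fitted change is given, since Nons had no reads on either day and 4 of 5 series had none on day 4. No other comparison of Hand2 was called, with 1 at an unadjusted p under 0.05, and limma called 0 of 9 for Tbx5, with 1 at an unadjusted p under 0.05.

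Among the contractile genes, Myl7, the atrial regulatory light chain of myosin (chr11:5896637-5898782, minus strand), was at 1.35, 1.72, 2.99 and 2.40 rpm in Nons, from 37, 34, 47 and 45 reads. With hairpin Smarcc1.6 the values were 0.867, 2.86, 3.65 and 2.97 rpm, and with Smarcc1.7 0.680, 1.90, 2.60 and 2.43 rpm. With Smarca4.4 they were 1.15, 1.76, 2.13 and 1.51 rpm, and with Smarca4.6 1.10, 2.46, 2.22 and 1.96 rpm. Most of these values differed from Nons by no more than counting error, since the interval of the ratio lay below 1 for Smarcc1.7 on day 4, above 1 for Smarcc1.6 on day 5, and took in 1 for the others and for all 4 hairpins on days 6 and 7. Myl7 rose by 1.08 from day 4 to day 7 (SE 0.22, adjusted p = 8.1e-04, 5 of 5 series), most of it from day 4 to day 5 (0.95, SE 0.22, adjusted p = 0.0052, 5 of 5 series). Both calls ended with quantile normalization (adjusted p = 0.11 and 0.098), and over 13 other settings adjusted p ran from 1.9e-04 to 0.11 and from 0.0014 to 0.098. Its knockdown differences were -0.041 for Smarcc1 (SE 0.20, adjusted p = 0.93) and -0.23 for Smarca4 (SE 0.20, adjusted p = 0.58), and over other settings the first difference ran from -0.58 to 0.22.

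Myh6, the alpha heavy chain of cardiac myosin (chr14:54941921-54966927, minus strand), was present on every day. In Nons it was at 3.86, 2.53, 0.763 and 2.18 rpm, from 106, 50, 12 and 41 reads. With hairpin Smarcc1.6 the values were 4.61, 2.22, 2.40 and 6.59 rpm, and with Smarcc1.7 5.03, 6.78, 6.60 and 7.30 rpm. With Smarca4.4 they were 4.27, 4.39, 4.55 and 3.34 rpm, and with Smarca4.6 4.45, 5.69, 1.91 and 4.15 rpm. It lay above Nons in 7 of 8 Smarcc1 and 8 of 8 Smarca4 libraries, and the ratio to Nons was largest on day 6, where the Nons level was lowest, for each hairpin. The counting interval of that ratio took in 1 for all 4 hairpins on day 4 and for Smarcc1.6 on day 5. Averaged over days Myh6 was 1.25 log2 higher in Smarcc1 knockdown (SE 0.34, adjusted p = 0.033) and 0.97 higher in Smarca4 knockdown (SE 0.34, adjusted p = 0.12), the second short of the threshold. The difference between the knockdowns was 0.28 (SE 0.28, adjusted p = 0.73). The Smarcc1 call was made in 11 of 20 other settings (adjusted p from 0.012 to 0.28) and ended with quantile normalization (0.063), with the replicate block (0.15), without Smarcc1.7 (0.16), without Smarca4.4 (0.097), without Smarca4.6 (0.097), with only the arms compared (0.097), with day 4 left out (0.054), with day 6 left out (0.13) and with day 7 left out (0.28). The difference was 0.83 without Smarcc1.7. The Smarca4 difference passed only with libraries thinned to the smallest (0.047), with adjusted p from 0.047 to 0.401. From day 4 to day 7 Myh6 differed by -0.17 (SE 0.37, adjusted p = 0.696). Its step from day 5 to day 6 (-0.82, SE 0.37, adjusted p = 0.11) passed only with quantile normalization (0.043), with adjusted p from 0.043 to 0.43. The step from day 6 to day 7 (0.88, SE 0.37, adjusted p = 0.087) passed with the replicate block (0.045) and without Smarcc1.7 (0.028), with adjusted p from 0.028 to 0.39. Myh7, the neighbouring beta heavy chain gene of very similar sequence, was at 4.00, 0.709, 1.08 and 43.3 rpm in Nons. On day 7 it was at 13.5, 15.0, 10.9 and 9.42 rpm with Smarcc1.6, Smarcc1.7, Smarca4.4 and Smarca4.6, below Nons in all 4, while Myh6 was above Nons in all 4. Averaged over days its differences were -0.41 in Smarcc1 (SE 0.32, adjusted p = 0.49, lower in 4 of 8 libraries) and -0.98 in Smarca4 knockdown (SE 0.32, adjusted p = 0.09, lower in 6 of 8), and neither passed. How reads were divided between the pair was not tested.

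The product of Actc1, cardiac actin (chr2:114047282-114053548, minus strand), builds the thin filament of heart muscle. In Nons Actc1 was at 0, 0.709, 5.34 and 3.09 rpm, from 0, 14, 84 and 58 reads. With hairpin Smarcc1.6 the values were 0, 0.0923, 0.578 and 2.01 rpm, and with Smarcc1.7 0.272, 0.0474, 0.762 and 2.12 rpm. With Smarca4.4 they were 0, 0, 1.84 and 1.37 rpm, and with Smarca4.6 0, 0.0849, 1.02 and 1.01 rpm. On days 5, 6 and 7 every hairpin library lay below Nons, while on day 4 only Smarcc1.7 had reads. On day 6 the ratio to the single Nons library was 0.108 with Smarcc1.6 (95% exact counting interval 0.0553 to 0.195) and 0.143 with Smarcc1.7 (0.0708 to 0.262). It was 0.345 with Smarca4.4 (0.222 to 0.524) and 0.190 with Smarca4.6 (0.104 to 0.327). On day 7 the ratios were 0.651, 0.686, 0.444 and 0.326 in the same order, nearer to 1, and the interval for Smarcc1.7 reached past 1 (0.436 to 1.07).

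Among genes past the looser filter Actc1 rose by 5.20 from day 4 to day 7 (SE 0.49, adjusted p = 9.2e-07, 5 of 5 series), mostly from day 5 to day 6 (3.31, SE 0.49, adjusted p = 3.0e-04, 5 of 5 series). The first ran from 1.49 to 5.91 over other settings, lowest with 1 added to the rpm. limma called a change from day 4 to day 5, a call made in 5 of 11 other settings. No fitted value is given for it, since 4 of the 5 series had no reads on day 4. Smarca4.4 had none on either day, so that its value moved with the depth of its library alone. The size of the rise to day 7 likewise depends on the lowest value given to the 4 series without reads on day 4. The step from day 5 to day 6 rests in part on the lowest value of Smarca4.4 on day 5. On that day the other hairpin libraries had 1 or 2 reads, and the step ran from 1.21 to 3.54 over other settings. Averaged over days its differences from Nons were -1.33 in Smarcc1 knockdown (SE 0.45, adjusted p = 0.074, lower in 6 of 8 libraries) and -1.42 in Smarca4 knockdown (SE 0.45, adjusted p = 0.082, lower in 6 of 8), and neither passed the test. With day 4 left out, a setting chosen after the data were seen, they were -2.34 (adjusted p = 0.0025) and -2.03 (adjusted p = 0.011). Over all 18 other settings the adjusted p ran from 8.5e-04 to 0.54 for Smarcc1 and from 0.0017 to 0.37 for Smarca4, and passed in 4 and 5. For Smarcc1 these were with 1 added to the rpm (8.5e-04), with quantile normalization (0.017), without Smarcc1.7 (0.042) and with day 4 left out (0.0025). For Smarca4 they were with 1 added to the rpm (0.0017), with quantile normalization (0.027), without Smarcc1.6 (0.047), with only the arms compared (0.045) and with day 4 left out (0.011). An entry on the opposite strand that overlaps Actc1, A530058N18Rik, named after its values were seen, had 0 to 2 reads a library.

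Actc1 and Myl7 both rose with time, and their upstream sequences are shown because each holds a CArG box, the element bound by serum response factor. RefSeq promoters were found for 8 of the 10 genes, and none for Hand1 and Tbx5. The 250 bases before the RefSeq start are given 5′ to 3′ on the minus strand of GRCm38.p6, chr2:114052876-114053125 for Actc1 and chr11:5898783-5899032 for Myl7. For Actc1 this start lies inside the gene's span in the expression table. Capitals mark matches, on either strand, to the CArG box and to 4 short motifs. The motif AGATAA is known from GATA factors, as is TGATAA. The motif AAGTG is known from Nkx2-5, and TATAAA is the TATA motif.
Actc1: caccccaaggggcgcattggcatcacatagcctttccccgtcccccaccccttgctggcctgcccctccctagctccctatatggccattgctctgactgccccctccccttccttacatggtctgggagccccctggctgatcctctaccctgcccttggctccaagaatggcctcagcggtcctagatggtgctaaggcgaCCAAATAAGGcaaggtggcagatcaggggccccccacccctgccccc
Myl7: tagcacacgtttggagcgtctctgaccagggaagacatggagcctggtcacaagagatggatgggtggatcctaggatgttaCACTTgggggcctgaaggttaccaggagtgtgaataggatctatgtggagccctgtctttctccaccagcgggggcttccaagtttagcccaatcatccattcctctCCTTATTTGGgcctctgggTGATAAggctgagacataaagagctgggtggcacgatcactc
The CArG box began 47 bases before the start in Actc1 and 61 in Myl7, and 1.47% of 32851 promoters of this length held one. In Myl7 a TGATAA match began 42 bases before the start (7.94% of promoters) and an AAGTG match 168 bases before it (40.7%), where it overlaps a match to the E-box CANNTG (66.2%). Neither AGATAA (9.99%) nor the TATA motif (12.4%) matched in either window. The promoters of the other 6 genes, among them Nkx2-5 and Isl1, which also rose, held no CArG box, which says only that these letters are not in those windows. Whether the box has a part in the rise of Actc1 or Myl7 was not tested.

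Tnnt2, cardiac troponin T (chr1:135836386-135852260, plus strand), had 2, 0, 0 and 10 reads in Nons and 0 to 7 in the hairpin libraries. The most were found on day 7 in Nons. Tnnt2 passed neither filter. In the fit with no filter limma called it 1.27 higher on day 7 than on day 4 (SE 0.45, adjusted p = 0.031, 3 of 5 series), with 10 reads or fewer in each library, and this call was not run under other settings. limma also called it higher on day 7 than on day 6, as it did 8.15% of genes, but no fitted change is given, since 3 of 5 series had no reads on day 6. No knockdown difference of Tnnt2 was called, with 1 at an unadjusted p under 0.05, that of its day 4 to day 7 change between Smarcc1 knockdown and Nons.

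**Figure D2:**
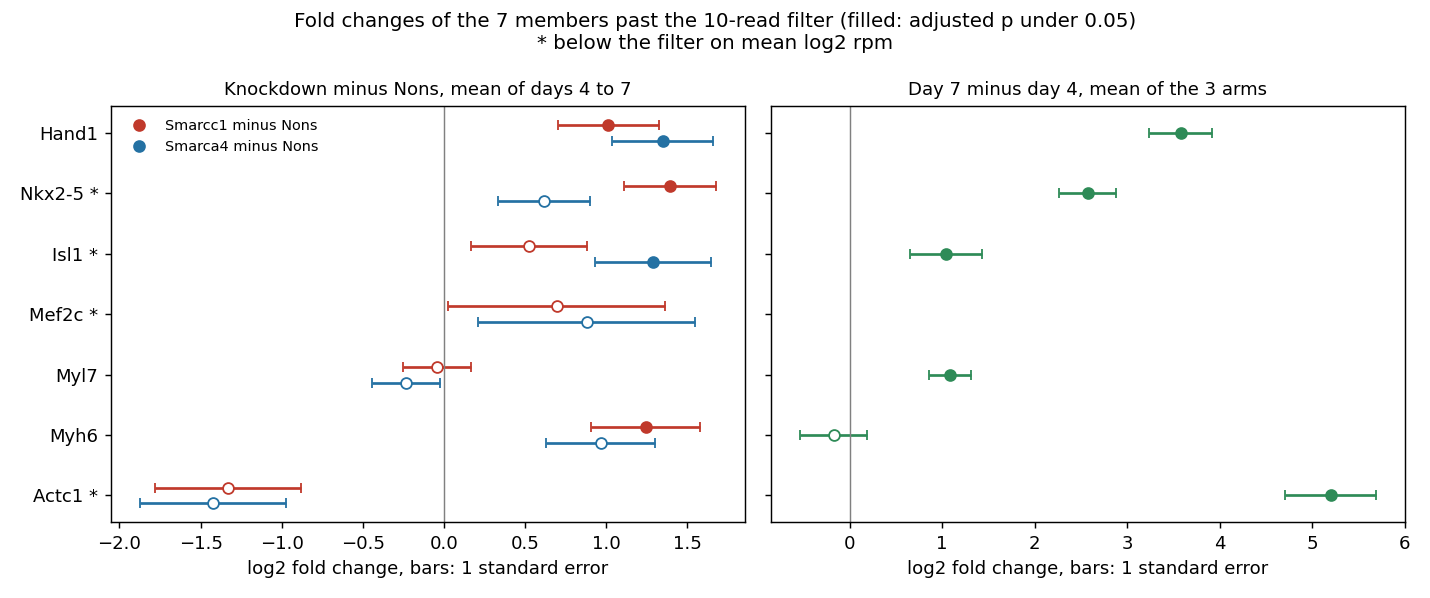
Log2 fold changes (horizontal axes, bars of 1 standard error) of the 7 genes past the looser filter, with each knockdown minus Nons on the left and day 7 minus day 4 on the right, filled where the adjusted p was under 0.05. Both knockdowns are compared with the same Nons libraries, Mef2c is left out on the right since Smarcc1.7 had no reads on either day, and Actc1 lies below 0 on the left and at 5.20 on the right.

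The number of heart genes called was set beside the share of all genes called. Among the 3 past the first filter, 1 (Myh6) was higher and 0 were lower in Smarcc1 knockdown, where 7.54% of genes were higher and 3.08% lower. In Smarca4 knockdown 1 (Hand1) was higher and 0 were lower, against 4.75% and 1.96%. From day 4 to day 7, 2 (Hand1 and Myl7) rose and 0 fell, against 35.7% and 28.8%. A single gene changed from day 4 to day 5 (Myl7; 38.7% of all genes changed), from day 5 to day 6 (Hand1; 32.3%) and from day 6 to day 7 (Hand1; 27.5%). limma called 0 of the 3 different between the knockdowns (4.09% of genes), and 0 with a day 4 to day 7 change that differed from that of Nons in Smarcc1 (0.459%) or Smarca4 knockdown (0.0827%). At an unadjusted p under 0.05 limma gave 2 of the 3 in Smarcc1 and 2 in Smarca4 knockdown (Hand1 and Myh6, both higher) and 2 for day 7 against day 4, both higher. Of all genes 22.8%, 19.4% and 67.6% had such a p in these comparisons. For the difference between the knockdowns and both differences in the day 4 to day 7 change 0 of the 3 had an unadjusted p under 0.05 (16.1%, 7.78% and 4.18% of all genes), and limma-voom also called 0.

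Among the 7 past the looser filter, Hand1, Nkx2-5 and Myh6 (3) were higher and 0 lower in Smarcc1 knockdown, where 9.48% of genes were higher and 2.97% lower. Hand1 and Isl1 (2) were higher and 0 lower in Smarca4 knockdown (4.93% and 1.78%). At an unadjusted p under 0.05 limma gave 4 and 5 of the 7, of which 1 in each knockdown, Actc1, was lower, and of all genes 25% and 20.2% had such a p. With time 5 rose, and limma called 1 more, Mef2c, lower (35.6% and 28.9% of genes), a call that rests on libraries without reads and is not counted as a fall. In a search over every pair of days, made after the data were seen, limma called 0 of 84 terms for a knockdown difference that changed between days, with 17 at an unadjusted p under 0.05 and a smallest adjusted p of 0.16. Over all genes past this filter 0.0704% of such terms were called and 4.49% had an unadjusted p under 0.05, and the terms share libraries with one another.

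The balance of calls over all genes moved with the scaling. Between days 4 and 7 the median change of all genes was 0.083 as deposited and -0.093 after centring each library on its median gene, and genes higher and lower numbered 4749 and 3826 as deposited, 4029 and 4704 centred and 4066 and 4427 after quantile normalization. Between days 6 and 7 it was 0.15 and -0.048, with 2248 and 1408 genes as deposited, 1407 and 2278 centred and 1653 and 2077 quantile normalized. For Smarcc1 knockdown the counts were 1003 and 409 as deposited, 936 and 523 centred and 600 and 518 quantile normalized. For Smarca4 knockdown they were 631 and 261, then 541 and 353, then 351 and 313. For the Smarcc1 difference in the day 4 to day 7 change, the median went from 0.14 to 0.015 and the counts from 59 and 2 to 43 and 1, and to 5 and 1 under quantile normalization. After centring, Hand1 rose by 3.40 and Myl7 by 0.91 from day 4 to day 7.

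The other genes of the heart programme were followed through lists. Of 32 cardiac factors and signals 13 passed the first filter, and from day 4 to day 7 10 rose and 1 fell (median 1.26 against 0.083 for all genes). Gata4, a zinc finger partner of Nkx2-5, rose by 2.57 (SE 0.25, adjusted p = 1.7e-06, 5 of 5 series). Called genes numbered 2 higher and 1 lower in Smarcc1 knockdown (median 0.089 against 0.064) and 1 higher and 1 lower in Smarca4 knockdown (0.24 against 0.064). The larger rise in Smarcc1 knockdown was that of Tbx3 (1.51, SE 0.38, adjusted p = 0.022, 8 of 8 libraries). That call was made in 13 of 20 other settings (adjusted p from 0.0081 to 0.15). Gata4 was 1.14 higher in Smarcc1 knockdown (SE 0.23, adjusted p = 0.0065, 6 of 8 libraries, called in 15 of 20 other settings, adjusted p from 0.0013 to 0.27) and 0.89 higher in Smarca4 knockdown (SE 0.23, adjusted p = 0.038, 6 of 8 libraries, called in 7 of 20, adjusted p from 0.036 to 0.38). The first call ended with libraries thinned to the smallest (0.051), with the replicate block (0.052), without Smarcc1.7 (0.072), with day 6 left out (0.08) and with day 7 left out (0.27). The second ended with quantile normalization (0.07), with the replicate block (0.21), without Smarcc1.6 (0.055), without Smarcc1.7 (0.058), without Smarca4.4 (0.18), without Smarca4.6 (0.22), with only the arms compared (0.059), on days 6 and 7 only (0.054), with an additive model (0.12), with day 5 left out (0.074), with day 6 left out (0.14), with day 7 left out (0.38) and with no filter (0.097). Hopx, a homeodomain protein that restrains serum response factor, fell by 1.06 (SE 0.18, adjusted p = 0.0025, 8 of 8 libraries) and by 1.59 (SE 0.18, adjusted p = 4.0e-04, 8 of 8 libraries), calls made in 20 of 20 other settings. Srf had the highest mean rpm of the list over the 20 libraries, which is what most abundant means for the lists that follow, and Bmp10, a signal of the trabecular heart, had no reads.

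Of 29 genes of the sarcomere, calcium handling and conduction 16 passed, and 11 rose and 4 fell from day 4 to day 7 (median 2.26). Acta1, skeletal actin, rose by 11.04 (SE 0.46, adjusted p = 1.3e-09, 5 of 5 series) and Myl3, a ventricular light chain, by 5.28 (SE 0.31, adjusted p = 2.1e-08, 5 of 5 series), while Ttn, titin, fell by 6.85 (SE 0.28, adjusted p = 1.1e-09, 5 of 5 series). Called genes numbered 3 higher and 4 lower in Smarcc1 knockdown (median 0.077) and 3 higher and 1 lower in Smarca4 knockdown (0.085). Tnni3, cardiac troponin I, was 1.19 higher (SE 0.18, adjusted p = 9.6e-04, 8 of 8 libraries) and 1.08 higher (SE 0.18, adjusted p = 0.0034, 8 of 8 libraries) in the Smarcc1 and Smarca4 knockdowns, the second call ending with day 7 left out (0.077) with adjusted p from 9.6e-04 to 0.077 over other settings. Actn2, sarcomeric alpha-actinin, was 1.18 (SE 0.17, adjusted p = 7.1e-04, 7 of 8 libraries) and Ttn 0.95 higher (SE 0.26, adjusted p = 0.031, 7 of 8 libraries) in Smarcc1 knockdown. The 4 genes lower there were Acta1, described with the actins, Myl3, which fell by 1.46 (SE 0.28, adjusted p = 0.0051, 8 of 8 libraries), Myl4, an atrial light chain, by 0.89 (SE 0.24, adjusted p = 0.031, 7 of 8 libraries), and Tpm1, a tropomyosin, by 0.66 (SE 0.11, adjusted p = 0.0017, 6 of 8 libraries). The Ttn call was made in 12 of 20 other settings (adjusted p from 0.0051 to 0.41) and the Myl4 call in 11 of 20 (from 0.01 to 0.36), and that of Myl3 (from 0.0018 to 0.061) ended with day 7 left out (0.061). The Actn2 call (from 2.8e-04 to 0.052) ended with day 7 left out (0.052). That of Tpm1, rerun after the data were seen (from 8.7e-04 to 0.053), ended with day 7 left out (0.053). Ttn ended with 1 added to the rpm (0.098), with quantile normalization (0.22), with the replicate block (0.17), without Smarcc1.6 (0.056), without Smarcc1.7 (0.198), with day 4 left out (0.071), with day 6 left out (0.41) and with day 7 left out (0.15). Myl4 ended with libraries thinned to the smallest (0.36), with the replicate block (0.15), without Smarcc1.7 (0.17), without Smarca4.4 (0.074), without Smarca4.6 (0.075), with only the arms compared (0.074), with day 4 left out (0.15), with day 6 left out (0.088) and with day 7 left out (0.34). Desmin, Des, fell by 0.70 in Smarca4 knockdown (SE 0.18, adjusted p = 0.031, 7 of 8 libraries), called in 12 of 20 other settings (adjusted p from 0.004 to 0.42), and ended with the replicate block (0.15), without Smarcc1.6 (0.073), without Smarcc1.7 (0.073), without Smarca4.4 (0.17), with only the arms compared (0.074), with day 4 left out (0.14), with day 6 left out (0.15) and with day 7 left out (0.42). Tpm1 was the most abundant, and Myoz2 and Sln had no reads in any library.

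Of 29 genes of lateral and extraembryonic mesoderm 28 were in the table and 16 passed, of which 9 rose and 4 fell with time (median 1.00). Called genes numbered 4 higher and 3 lower in Smarcc1 knockdown (median 0.34) and 4 higher and 2 lower in Smarca4 knockdown (0.40). Meis2, a homeobox factor of limb and heart, was 1.25 and 1.22 higher (SE 0.24, adjusted p = 0.0044, 8 of 8 libraries; SE 0.24, adjusted p = 0.0087, 7 of 8 libraries). The first call ended with day 6 left out (0.36) and the second with the replicate block (0.071), without Smarca4.4 (0.073), with an additive model (0.052), with day 6 left out (0.25) and with day 7 left out (0.102), with adjusted p from 9.8e-04 to 0.36 and from 0.0031 to 0.25 over other settings. Wt1, a factor of the epicardium and kidney, fell by 1.25 (SE 0.15, adjusted p = 1.7e-04, 8 of 8 libraries) and 1.17 (SE 0.15, adjusted p = 6.0e-04, 8 of 8 libraries). The largest called changes were those of Dcn, at -2.95 (SE 0.49, adjusted p = 0.0019) and -2.37 (SE 0.49, adjusted p = 0.013). It was lower in 8 of 8 libraries of either knockdown and was called in 20 and 15 of 20 other settings. The largest rise in Smarcc1 knockdown was that of Pdgfra (1.38, SE 0.27, adjusted p = 0.0053, 8 of 8 libraries, called in 17 of 20 other settings). Ahnak was the most abundant gene, and Osr1 had no reads.

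Actc1 was set beside its paralogs. In Nons, Acta1 was at 0.109, 0.861, 65.9 and 463 rpm and Acta2, the smooth muscle actin, at 1.67, 0.760, 80.5 and 506 rpm on days 4, 5, 6 and 7. On day 7 Acta1 was at 113, 112, 173 and 132 rpm with Smarcc1.6, Smarcc1.7, Smarca4.4 and Smarca4.6, all below Nons. Acta2 was at 170.1, 151, 152 and 114 rpm, again all below. Averaged over days Acta2 fell by 1.22 in Smarcc1 knockdown (SE 0.21, adjusted p = 0.0026, 8 of 8 libraries) and by 1.65 in Smarca4 knockdown (SE 0.21, adjusted p = 7.0e-04, 7 of 8 libraries), the first call ending with day 6 left out (0.092) and with day 7 left out (0.09) with adjusted p from 4.2e-04 to 0.092 over other settings. Acta1 fell by 1.52 in Smarcc1 knockdown (SE 0.42, adjusted p = 0.036, 8 of 8 libraries), a call made in 12 of 20 other settings (adjusted p from 5.4e-04 to 0.32) and ended with libraries thinned to the smallest (0.055), with the replicate block (0.22), without Smarcc1.6 (0.082), without Smarcc1.7 (0.18), without the Smarca4.4 library of day 5 (just over 0.05), with day 5 left out (0.056), with day 6 left out (0.22) and with day 7 left out (0.32). In Smarca4 knockdown its difference was -0.87 (SE 0.42, adjusted p = 0.28, lower in 6 of 8 libraries), which did not pass. The actins share nearly all of their coding sequence, so values of Actc1 are uncertain to the extent that reads were divided among them, and this was not tested.

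**Figure D3:**
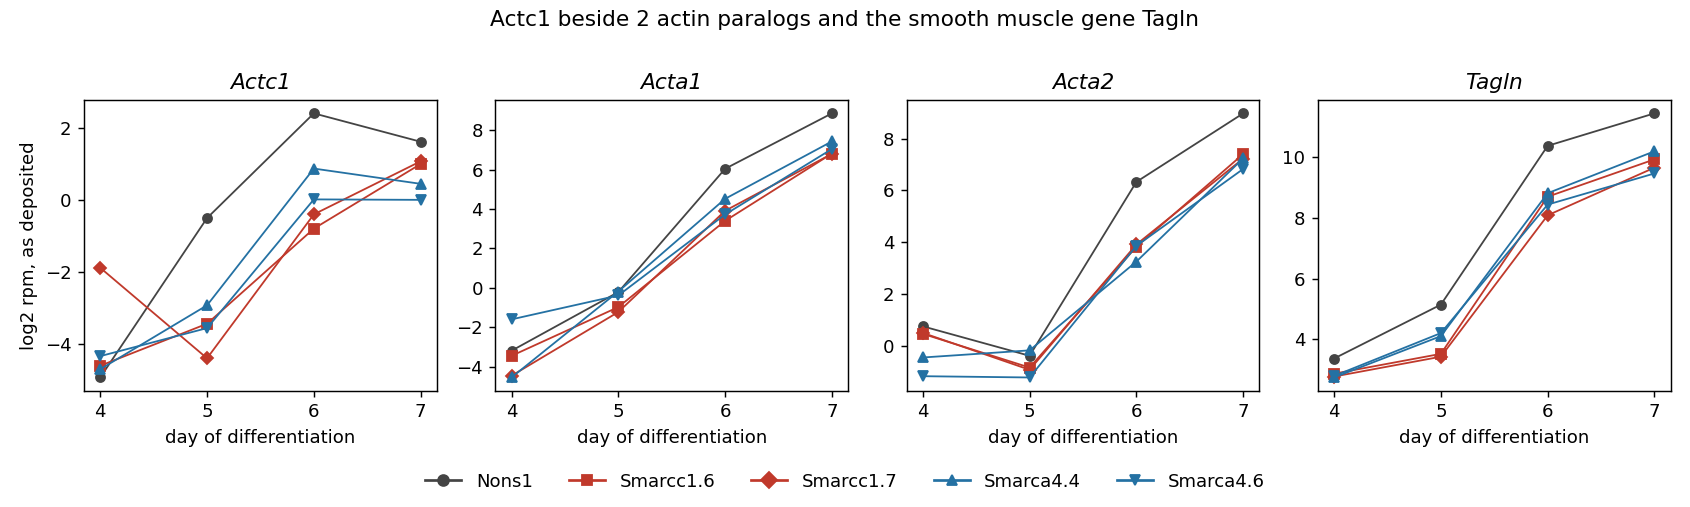
Deposited log2 rpm (vertical axes) of Actc1, its paralogs Acta1 and Acta2 and the smooth muscle gene Tagln by day (horizontal axes) in each library, where libraries without Actc1 reads stand at their lowest value. Nons lies above all 4 hairpins for each gene on days 6 and 7.

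Genes of other cell types that use these transcripts moved over the same libraries, and their part in the values of the heart genes was not tested. Of 11 smooth muscle genes 9 passed, and 9 rose with time (median 3.48). Called genes numbered 4 lower in Smarcc1 knockdown (median -0.35) and 1 higher and 4 lower in Smarca4 knockdown (-0.66). Their summed level was 126, 195, 2017 and 4389 rpm in Nons over the 4 days, and on day 7 1751 and 1912 rpm in the Smarcc1 and 1685 and 2368 rpm in the Smarca4 libraries. Tagln, the most abundant by its mean over all days, was at 6.74 to 10.4 rpm on day 4 and 699 to 2743 rpm on day 7. Each of the 11 had reads in at least 1 library.

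Of 14 trophoblast genes in the table, a tissue that uses Hand1, 8 passed, and 4 rose and 1 fell with time (median 2.33). Called genes numbered 2 higher and 3 lower in Smarcc1 knockdown (median -0.0033) and 2 higher in Smarca4 knockdown (0.28). Their summed level was 63.8, 124, 1284 and 3481 rpm in Nons, and on day 7 1602 and 1664 rpm in the Smarcc1 and 2111 and 3065 rpm in the Smarca4 libraries. Krt18, a keratin, was the most abundant, at 12.4 to 16.7 rpm on day 4 and 755 to 1712 rpm on day 7. Its level in Nons on day 7 was 1712 rpm, a large part of the sum. The keratin genes Krt8 and Krt7 rose by 6.53 and 6.06 from day 4 to day 7 (adjusted p = 6.3e-11 for each). The gene that fell was Ascl2, by 1.72 (SE 0.19, adjusted p = 4.4e-06, 5 of 5 series). The sum therefore says little of scarcer genes of this list. Prl3d1 and Prl2c2, which mark giant cells, had no reads. Esx1, a placental homeobox gene, was 0.91 higher in Smarcc1 knockdown (SE 0.18, adjusted p = 0.0059, 8 of 8 libraries) and 1.31 higher in Smarca4 knockdown (SE 0.18, adjusted p = 0.0011, 8 of 8 libraries). The first call ended with libraries thinned to the smallest (0.091), with the replicate block (0.061), without Smarcc1.7 (0.058), with day 6 left out (0.061) and with day 7 left out (0.08) and the second with day 7 left out (0.063), with adjusted p from 0.003 to 0.091 and from 7.1e-04 to 0.063 over other settings. Krt7, a simple epithelial keratin, fell by 1.02 in Smarcc1 knockdown (SE 0.15, adjusted p = 6.8e-04, 8 of 8 libraries).

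Of 13 motor and autonomic neuron genes in the table, a setting of Isl1, 4 passed, with 1 higher in Smarcc1 knockdown, 1 higher in Smarca4 knockdown and 2 higher and 2 lower on day 7 than on day 4 (medians 0.67, 0.82 and 0.16). Their sum was 22.3, 19.5, 18.9 and 24.9 rpm in Nons and on day 7 41.0 and 42.7 rpm in Smarcc1 and 33.4 and 34.4 rpm in Smarca4 libraries, with Phox2a the most abundant and Dbh without reads. Of 11 endothelial and blood genes, a setting of Mef2c, 8 passed, with 4 higher, 2 higher and 1 higher and 4 lower in the same comparisons (medians 0.58, 0.36 and -0.60). Their sum was 109, 85.9, 73.8 and 49.2 rpm in Nons and on day 7 80.7 and 96.7 rpm in Smarcc1 and 49.3 and 52.4 rpm in Smarca4 libraries, with Egfl7 the most abundant and Emcn without reads.

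Of 12 listed skeletal muscle genes with entries, 2 passed, with 1 higher, 1 higher and 1 lower for the Smarcc1, Smarca4 and day 7 comparisons (medians 1.03, 0.61 and -1.92). Their sum was 18.2, 17.98, 15.1 and 14.4 rpm in Nons over the 4 days, with Tnnt1 the most abundant. On day 4 it was 27.4 and 28.4 rpm in Smarcc1 and 20.7 and 21.4 rpm in Smarca4 libraries. The sums on day 5 were 30.4 and 32.0 rpm and 20.9 and 29.8 rpm in the same order. Day 6 gave 16.8 and 19.4 rpm and 11.1 and 13.6 rpm, and day 7 16.0 and 16.3 rpm and 12.8 and 16.3 rpm. Of 10 endoderm genes 1 passed, Dab2, which rose by 4.33 with time (SE 0.26, adjusted p = 2.9e-08, 5 of 5 series) and was at -0.25 and -0.54 in the knockdowns (adjusted p = 0.59 and 0.24). Past the looser filter 8 of the 10 were tested, and 4 were higher and 0 lower in Smarcc1 knockdown (median 1.23 against 0.094 for all genes, 4 at an unadjusted p under 0.05). These, named after their values were seen, were Hnf4a at 3.01 (SE 0.59, adjusted p = 0.0046, higher in 8 of 8 libraries), Ttr at 1.97 (SE 0.56, adjusted p = 0.035, higher in 5 of 8 libraries), Sox7 at 1.73 (SE 0.32, adjusted p = 0.003, higher in 7 of 8 libraries) and Apoa1 at 1.48 (SE 0.43, adjusted p = 0.038, higher in 6 of 8 libraries). All 4 were scarce, with 63 to 228 reads over the 20 libraries together. Libraries without reads entered these fits at the lowest value set by their depth. Over other settings the differences ran from 0.61 to 3.87 for Hnf4a and 0.30 to 3.15 for Ttr. They ran from 0.49 to 2.68 for Sox7 and 0.53 to 3.21 for Apoa1. Scarce genes can pass the filter through libraries in which they are high, so the count and median of this list support no direction. On day 6, 3 of the 10 had at least 3 reads in Nons and 9 in each Smarcc1 library. Over 18 other settings, chosen after the data were seen, Hnf4a was called in 17 (adjusted p from 0.001 to 0.055), Sox7 in 17 (0.0011 to 0.11), Apoa1 in 8 (0.0034 to 0.58) and Ttr in 7 (0.01 to 0.33). The Hnf4a call ended without Smarcc1.7 (0.055) and the Sox7 call with day 6 left out (0.11). The Apoa1 call ended with median centring (0.055), with quantile normalization (0.197), with limma-voom (0.073), with libraries thinned to the smallest (0.2), with the replicate block (0.18), without Smarcc1.6 (0.14), without Smarcc1.7 (0.14), with an additive model (0.14), with day 6 left out (0.37) and with day 7 left out (0.58). The Ttr call ended with 1 added to the rpm (0.072), with median centring (0.054), with quantile normalization (0.15), with libraries thinned to the smallest (0.23), with the replicate block (0.14), without Smarcc1.6 (0.15), without Smarca4.4 (0.089), without Smarca4.6 (0.088), with only the arms compared (0.088), with day 6 left out (0.24) and with day 7 left out (0.33). In Smarca4 knockdown limma called 0 higher and 0 lower, with 2 at an unadjusted p under 0.05 (median 0.26), and on day 7 3 were higher and 1 lower than on day 4. The sum of the 10 was 5.50, 8.001, 15.5 and 37.9 rpm in Nons and on day 7 31.8 and 34.5 rpm in Smarcc1 and 29.7 and 31.0 rpm in Smarca4 libraries. All 10 pluripotency genes passed, with 5 higher, 3 higher and 9 lower in these comparisons (medians 0.56, 0.47 and -2.28). Their sum was 4550.0, 3815, 3344 and 1112 rpm in Nons and on day 7 1485 and 1880.4 rpm in Smarcc1 and 1299.9 and 1337 rpm in Smarca4 libraries. Tdgf1, the most abundant by its mean over all days, was at 918 to 1254 rpm on day 4 and 71.3 to 308 rpm on day 7.

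The looser filter let more genes of the lists be tested, and the numbers higher and lower were then as follows. In Smarcc1 knockdown they were 4 and 2 of 26 cardiac factors, 4 and 4 of 22 sarcomere, 4 and 3 of 23 lateral mesoderm, 2 and 4 of 11 smooth muscle, 4 and 3 of 10 trophoblast, 2 and 0 of 8 neuron, 5 and 0 of 9 endothelial and 1 and 0 of 5 skeletal muscle genes. In Smarca4 knockdown they were 1 and 2, 4 and 1, 4 and 2, 1 and 4, 3 and 0, 1 and 0, 2 and 0 and 1 and 0 in the same order.

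**Figure D4:**
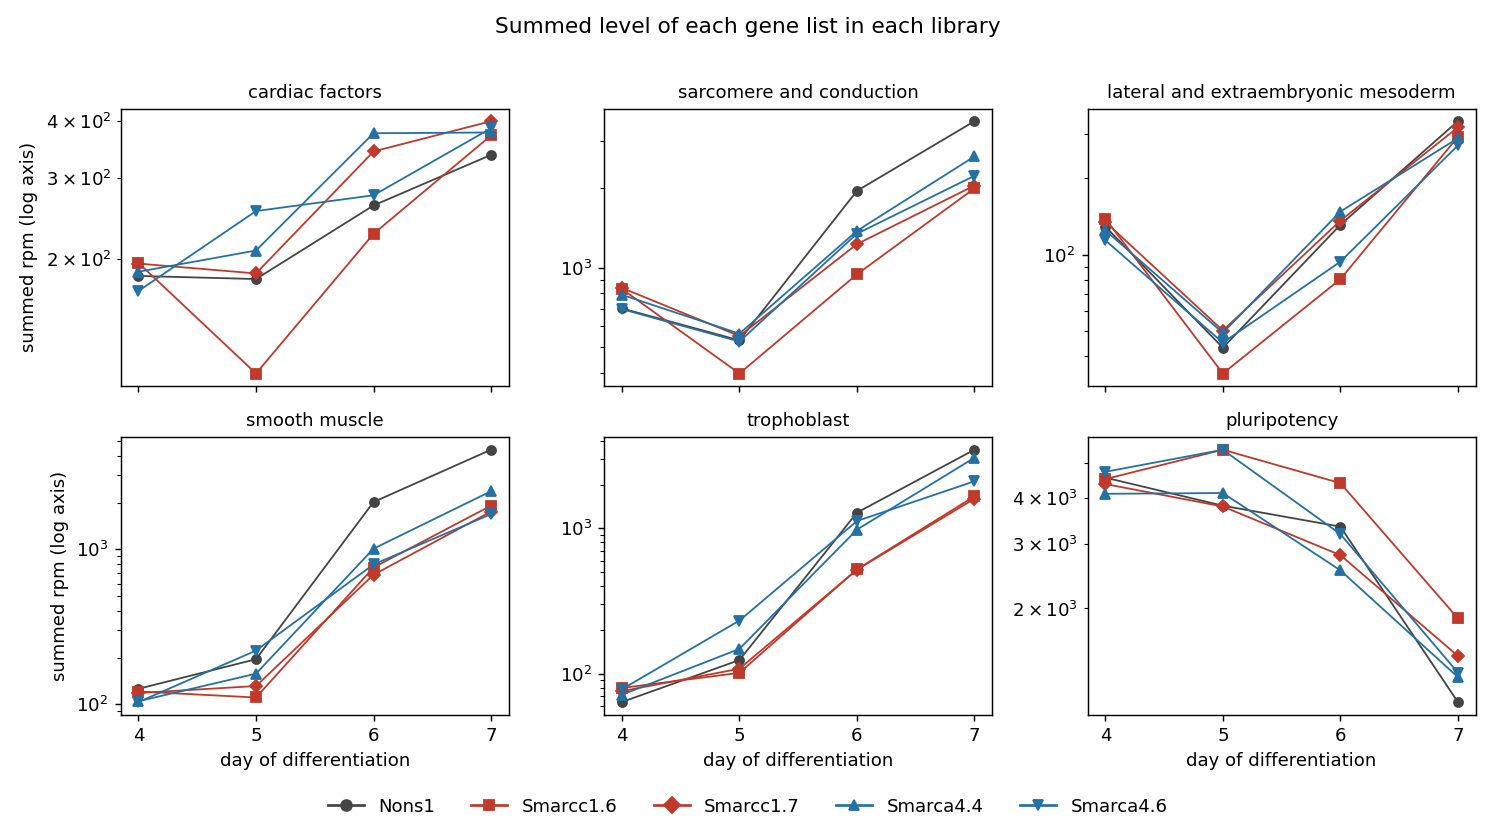
Summed rpm of 6 gene lists (vertical log axes) by day (horizontal axes) in each library. On days 6 and 7 the smooth muscle and the sarcomere sums are highest in Nons, and on day 7 the pluripotency sum is lowest in Nons. Tpm1 makes up a large part of the sarcomere sum, at 694 to 1635 rpm on day 6 and 1381 to 2588 rpm on day 7. The sum therefore says little of scarcer genes of that list, some of which were called higher and some lower in the knockdowns.

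The genes whose log2 levels most resembled each of the 3 better measured heart genes over 20 libraries are named as a description, since the libraries share days, hairpins and a common control. Pearson correlations are given as measured and after day means were removed. For Hand1 they were Esx1 (0.97, and 0.81), Letmd1 (0.96, and 0.82) and Dlx3 (0.94, and 0.71). For Myl7 they were Mospd1 (0.92, and 0.65), C330021F23Rik (0.92, and 0.74) and Cd40 (0.92, and 0.68). For Myh6 they were Mtss1l (0.96, and 0.96), Fam117b (0.94, and 0.93) and Wdr81 (0.93, and 0.97).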

How the data were processed

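Single-end reads had been trimmed and mapped to the mm10 genome by the authors, who deposited 1 value a gene and library in log2 rpm. The submitters' processing notes name HISAT2 and bcl2fastq, and the annotation release and use of strand are not given in the sources used here, so overlapping genes are uncertain. A gene without reads carries a value equal to 0.9 of a read. From it whole reads were recovered, and 100% of values under 1000 reads were whole within 0.02.

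All 20 libraries were fitted with limma 3.58.1 in R 4.3.3 (lmFit, eBayes with trend) on the log2 values, with 1 mean for each of 12 knockdown and day combinations. Nons had 1 library a day, so the spread (8 residual degrees of freedom) rests on paired hairpins of a knockdown. Contrasts were averaged over days or arms, and p-values were adjusted over all genes tested by Benjamini-Hochberg with a threshold of 0.05. Nothing says that libraries came from separate cultures, so p-values measure only the spread between these samples, which may be technical. For genes outside the first filter, values are from a fit with the 10-read filter, a combination reported after the data were seen.

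Alternatives were other filters, 1 added to the rpm, median centring, quantile normalization, limma-voom on recovered reads, thinning, a replicate block, other models, and leaving out hairpins or days. Named genes were the members, the targets, up to 3 genes per list, comparison and direction by size of change among those called, the most abundant gene of each list, and the 3 genes most correlated with each member past the first filter. Of these a selection is printed, and 1 gene is not reported here. Actin and myosin paralogs were added because of their similar sequence. The members and lists were chosen with earlier results of these data known. Promoters are from RefSeq (GRCm38.p6) and exon lengths from GENCODE.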

Additional observations from a re-analysis of the deposited data

How the results depend on the processing

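For the 3 heart genes past the first filter, 365 fold changes kept direction and side of the threshold under other settings, 13 newly passed, 26 no longer passed and 10 changed sign, none of the last a called change. For the 4 let in by the 10-read filter these numbers were 410, 16, 34 and 20. Of the calls of other named and targeted genes, 1625 values kept direction and side of the threshold and 315 no longer passed. Heart genes called in Smarcc1 knockdown (1) became 0 with quantile normalization, with the replicate block and with day 4, 6 or 7 left out, 2 with day 5 left out, an additive model or no filter, 3 with the 10-read filter, and 0 to 2 on leaving out a hairpin or the Smarca4.4 library of day 5. In Smarca4 knockdown (1) they became 0 with the replicate block, only the 2 arms compared, days 6 and 7 only, or day 4, 6 or 7 left out, 2 with the 10-read filter, and 0 to 1 on leaving out libraries. From day 4 to day 7 (2) they became 1 with quantile normalization, 7 with no filter (Hand2 and Tnnt2 among them, Isl1 not) and 6 with the 10-read filter (Mef2c among both, with series that had no reads on day 7). For days 4 to 5 (1) they became 0 with quantile normalization, 3 with no filter or the 10-read filter (Actc1 among them, with a series that had no reads on either day), and 1 to 2 on leaving out libraries. For days 5 to 6 (1) they became 0 with 1 added to the rpm or limma-voom, 2 with quantile normalization, 3 with no filter or the 10-read filter, and 0 to 1 on leaving out libraries. For days 6 to 7 (1) they became 2 with the replicate block or no filter (in the latter Tnnt2, without reads on day 6 in 3 series), and 1 to 2 on leaving out libraries. Looser filters test more of the scarce genes. With the 10-read filter limma called 10534 of all 16324 genes from day 4 to day 7. It called 6222 from day 4 to day 5, 5090 from day 5 to day 6 and 3922 from day 6 to day 7. In Smarcc1 and Smarca4 knockdown it called 2032 and 1095. Moves in the number of heart genes called are therefore not read as results about these genes. Where leaving out a hairpin left 1 library in a group, it was assumed to vary like the other groups. Smarca4 in its knockdown ran from -1.99 to -1.59 on leaving out libraries and was -1.76 with day 7 left out, no longer past the threshold in the last and without Smarca4.6. The replicate block, each hairpin's series over days as a random effect, had a correlation of 0.217. Hairpin deviations correlated between days at -0.21 to 0.82 over 12 pairs. The highest were in Smarcc1 knockdown, for days 5 and 6 (0.82), 6 and 7 (0.58) and 5 and 7 (0.44). Averages over days in that knockdown thus count libraries that moved together. The titles name the same hairpin on each day, a link that the main fit did not use, and nothing says whether its libraries shared a culture. Signs changed as follows. Myl7 in Smarcc1 knockdown was 0.012 with 1 added to the rpm, -0.26 to 0.17 on leaving out libraries, 0.10 on days 6 and 7 only and 0.22 with day 4 left out. The Hand1 difference in day 4 to day 7 change was 0.21 (Smarcc1) and 0.50 (Smarca4) with 1 added to the rpm, and 0.59 (Smarca4) with libraries thinned. On leaving out libraries Myl7 between the knockdowns ran from -0.025 to 0.41, Myh6 between the knockdowns from -0.14 to 0.70, and Myh6 from day 4 to day 5 from -0.49 to 0.0074. Under the 10-read filter Mef2c was -0.039 for the Smarca4 difference in day 4 to day 7 change with 1 added to the rpm. From day 4 to day 5 Mef2c was 0.087 with limma-voom, 0.069 thinned, 0.42 without Smarcc1.6 and 0.028 without Smarca4.4, and from day 6 to day 7 0.19 thinned. Between the knockdowns Mef2c was 0.40 without Smarcc1.7, 0.48 without Smarca4.4, 0.88 on days 6 and 7 only and 0.54 with day 4 left out. Actc1 between the knockdowns was -0.23 thinned, -0.19 without Smarcc1.7, -0.10 without Smarca4.6, -0.12 on days 6 and 7 only, -0.30 with day 4 left out and -0.15 with day 7 left out. With median centring Isl1 and Actc1 from day 6 to day 7 were -0.025 and -0.0038. Isl1 in Smarcc1 knockdown was -0.041 with quantile normalization and -0.085 with day 6 left out. The cause was not tested. Leaving out days and combining the 10-read filter with other settings, and the reruns of Tpm1 and 4 endoderm genes, were chosen after the data were seen. Depth limits Hand2, Tbx5 and Tnnt2, with 0 to 10 reads a library.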
